A study of Mus musculus with 3 samples.

Results

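The Sox genes encode transcription factors that bind DNA through an HMG box, and the genes examined here were 10 of the 31054 features in the count tables, found by their gene symbols. They belong to 3 groups of the family: Sox1, Sox2, Sox3 and Sox21 in group B, Sox7, Sox17 and Sox18 in group F, and Sox8, Sox9 and Sox10 in group E. RNA of single cells was counted in 3 wild-type mouse embryos of the strain C57BL/6 x 129 SvEv at embryonic day 8, chosen at 0 to 1 somite (another label field allows up to 2). The extraembryonic tissue had been taken off, each embryo gave 1 library (embryos 1, 2 and 3), and no other genotype or treatment was measured. The series was collected to find the cells of the node, or left-right organizer (LRO), and the question here was in which lineages of the whole embryo each Sox group was expressed and how far members of a group shared cells.

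Group B genes are known from the early nervous system. Sox2 and Sox3 act in the epiblast and in neural progenitors, Sox1 marks neural commitment, and Sox21 belongs to the subgroup described as repressing the targets of the others. Group F genes act in endothelial development, and Sox17 is also required for the definitive endoderm. Group E genes are best known from the neural crest, where Sox8, Sox9 and Sox10 overlap, while Sox9 also directs cartilage formation and is expressed in the notochord.

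The group of a Sox gene can be read in the DNA that encodes its HMG box. The first 60 bases of a coding stretch shared by all members are printed so that the groups can be compared by eye, starting at a run of 9 codons that encode the same amino acids in all 10 genes. Capitals mark the 27 bases that are identical in all 10.
Sox1: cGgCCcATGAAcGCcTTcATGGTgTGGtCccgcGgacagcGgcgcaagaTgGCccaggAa
Sox2: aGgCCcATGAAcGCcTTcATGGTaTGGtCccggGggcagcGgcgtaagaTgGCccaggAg
Sox3: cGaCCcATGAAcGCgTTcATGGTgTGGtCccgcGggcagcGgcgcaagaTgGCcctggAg
Sox21: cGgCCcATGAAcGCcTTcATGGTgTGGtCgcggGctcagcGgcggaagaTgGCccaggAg
Sox7: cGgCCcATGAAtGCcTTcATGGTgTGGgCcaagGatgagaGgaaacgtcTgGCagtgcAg
Sox17: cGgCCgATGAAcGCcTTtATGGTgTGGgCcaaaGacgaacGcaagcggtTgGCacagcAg
Sox18: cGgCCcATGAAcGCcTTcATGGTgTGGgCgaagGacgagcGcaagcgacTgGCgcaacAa
Sox8: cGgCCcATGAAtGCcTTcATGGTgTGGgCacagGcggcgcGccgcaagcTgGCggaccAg
Sox9: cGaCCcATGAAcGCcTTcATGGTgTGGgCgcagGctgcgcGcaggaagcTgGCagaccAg
Sox10: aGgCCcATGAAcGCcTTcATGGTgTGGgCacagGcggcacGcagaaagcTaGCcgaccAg

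Over 210 bases from the same start, members of group B were identical at 87.6% to 90.5% of positions, members of group E at 82.4% to 86.2% and members of group F at 78.1% to 84.3%. The 33 pairs from different groups were identical at 65.7% to 77.6%, so every pair within a group was closer than every pair between groups. The libraries count the 3′ ends of transcripts, and this stretch ended 1051 to 3400 bases before the transcript end, so the shared box itself was not what the counts read.

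In GRCm38, the assembly behind mm10, the genes of group B lie at chr8:12395295-12400126 (Sox1, plus strand), chr3:34650405-34652461 (Sox2, plus strand), chrX:60891366-60893430 (Sox3, minus strand) and chr14:118233232-118237030 (Sox21, minus strand), each with 1 exon in the transcript used. Those of group F lie at chr14:63943673-63950732 (Sox7, plus strand, 2 exons), chr1:4490931-4497354 (Sox17, minus strand, 5 exons) and chr2:181669836-181671640 (Sox18, minus strand, 2 exons). Those of group E lie at chr17:25565892-25570686 (Sox8, minus strand, 3 exons), chr11:112782224-112787760 (Sox9, plus strand, 3 exons) and chr15:79154908-79165240 (Sox10, minus strand, 5 exons). Sox21 overlaps Gm4675 on the opposite strand, the only overlapping gene counted separately in these files. Whether the counting used strand was not stated, so reads of Sox21 and Gm4675 cannot be told apart with certainty. Gm4675 held 665 UMIs in placed cells against 2603 for Sox21.

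A UMI is a molecular tag that lets the copies of 1 RNA molecule be counted once. After quality control 5778, 7950 and 7830 cells were kept in embryos 1, 2 and 3, with medians of 27699, 14622.5 and 16361.5 UMIs, so a cell of embryo 1 carried the most UMIs. Cells were placed in 1 of 18 lineages by the UMIs of 5 to 9 marker genes per lineage, none of them a Sox gene, and 81.2% of the kept cells were placed. The lineage names below mean cells placed by these markers, not dissected tissue, and 50.3% of the kept cells reached the minimum of 3 markers in more than 1 list. Each of 12 genes held back from placing as a check was highest in a lineage it is known for, among them Hbb-bh1 in erythroid cells, Ttr in extraembryonic endoderm, Hand2 in cardiac mesoderm and Epcam in gut endoderm. Pou3f1 and Cldn5 were also among these 12, and both appear again below among the genes linked to Sox groups. Levels are counts per 1000000 UMIs of the summed cells (CPM), given per embryo. Where embryo ranges are said to overlap or to be apart, no share over all genes is given beside it. The 53 sums held 10 to 1331 cells; the fewest were in the neural plate border of embryo 3. Embryo 1 had 3 erythroid cells and gave no erythroid sum, so erythroid values come from embryos 2 and 3. Extraembryonic endoderm was placed in 324, 1331 and 1064 cells although extraembryonic tissue had been removed. Any pair of embryos shared 18 to 22 cell barcodes.

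**Figure D1:**
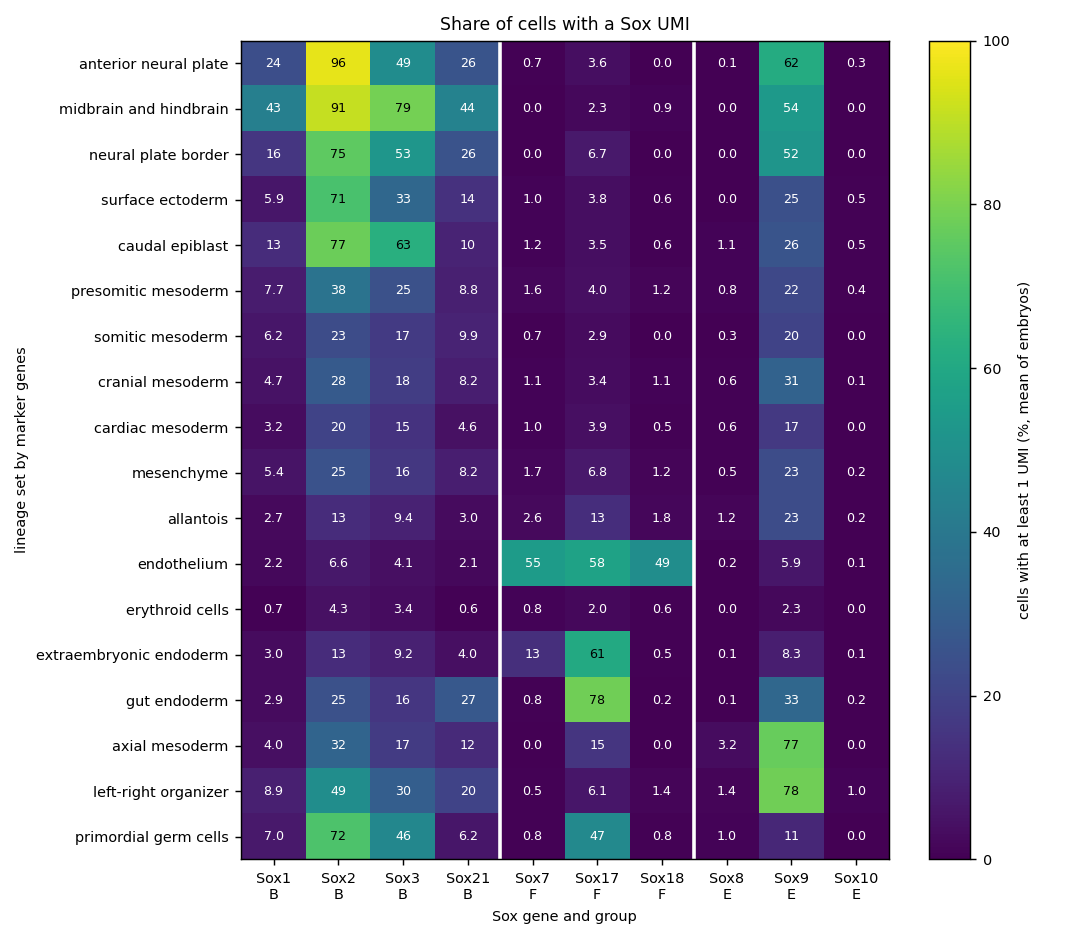
Percent of cells with at least 1 UMI of each Sox gene (columns, by group) in each lineage (rows), as the mean over the embryos with a sum. Sox2 is at 96.5% of anterior neural plate cells, Sox1 and Sox21 are found in fewer cells than Sox2 in that row, the 3 group F genes meet in the endothelium row, and Sox9 is at 76.8% and 78.3% in the axial mesoderm and LRO rows.

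Sox2, which maintains pluripotent and neural progenitor states, was detected in nearly every cell of the anterior neural plate. Its level there was 231, 262 and 240 CPM in embryos 1, 2 and 3, with a UMI in 96.7%, 95.9% and 96.9% of cells. The level was 160, 245 and 129 CPM in midbrain and hindbrain and 103, 183 and 130 CPM in primordial germ cells. These 3 lineages led the order, but their embryo ranges overlapped from one to the next. Caudal epiblast followed at 93.3, 105 and 98.0 CPM, neural plate border at 103, 93.0 and 94.2 CPM and surface ectoderm at 79.3, 76.7 and 84.0 CPM. Border and surface ectoderm did not overlap, and along the 18 lineages only 1 further pair of neighbours was apart, endothelium and erythroid cells. That gap was very narrow, from 6.463 CPM as the lowest endothelium value to 6.462 CPM as the highest erythroid value. Mesodermal levels were lower, with means of 48.6 CPM in presomitic mesoderm, 37.1 CPM in somitic mesoderm and 28.0 CPM in cardiac mesoderm. In erythroid cells, taken here as the measure of background from free RNA, Sox2 was at 4.22 and 6.46 CPM with a UMI in 3.72% and 4.89% of cells, at medians of 14601 and 16086.5 UMIs per cell. The anterior neural plate of the same embryos had medians of 17312 and 17317 UMIs. After each cell was thinned to 5000 UMIs, Sox2 was still found in 69.1% ± 0.663 (SD, n = 3) of anterior neural plate cells against 1.19% ± 0.242 (SD, n = 2) of erythroid cells.

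Sox3 was led by midbrain and hindbrain, primordial germ cells and caudal epiblast. It was at 99.7, 71.4 and 71.3 CPM in midbrain and hindbrain, at 78.2, 45.7 and 41.1 CPM in primordial germ cells and at 66.3, 51.1 and 44.0 CPM in caudal epiblast. In the anterior neural plate it was at 53.3, 37.7 and 32.0 CPM, a range that overlapped the caudal epiblast. Of the 17 pairs of neighbours in its order only allantois, at 8.91, 8.27 and 6.20 CPM, and endothelium, at 4.25, 2.97 and 4.91 CPM, had ranges that did not overlap. Erythroid cells were at 2.29 and 4.62 CPM. Cells placed in no lineage, which this order leaves out, were at 62.4, 41.9 and 43.7 CPM. They held 2330, 960 and 1339 of the 6574, 2708 and 3621 Sox3 UMIs in kept cells. In midbrain and hindbrain, primordial germ cells, caudal epiblast and anterior neural plate, embryo 1 was the highest of the 3.

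Sox1 and Sox21 were counted at lower levels and in fewer cells. Sox1 was at 28.0, 33.5 and 23.8 CPM in midbrain and hindbrain and at 15.1, 15.3 and 10.4 CPM in the anterior neural plate, 2 lineages whose ranges did not overlap. The midbrain and hindbrain levels rested on 36, 15 and 9 Sox1 UMIs in 37, 24 and 16 cells. Neural plate border followed at 7.07, 8.08 and 6.28 CPM, caudal epiblast was at 7.34, 4.93 and 5.85 CPM, and surface ectoderm was at 3.07, 2.5 and 2.09 CPM. The Sox1 share of cells in the anterior neural plate was 32.0%, 24.1% and 15.7% against 0.564% and 0.815% of erythroid cells. Outside midbrain, hindbrain and anterior neural plate no lineage mean exceeded 7.15 CPM. Cells placed in no lineage, which this order leaves out, were above that value at 12.7, 12.1 and 9.07 CPM. They held 474, 276 and 278 of the 1146, 635 and 714 Sox1 UMIs in kept cells.

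Sox21 had its high levels both in the neural plate and in an endodermal lineage. It was at 31.5, 25.0 and 15.3 CPM in gut endoderm, where 40.8%, 23.6% and 17.7% of cells had a UMI. The anterior neural plate was at 16.8, 21.9 and 15.3 CPM, which overlapped the gut. Midbrain and hindbrain had the highest mean, 38.6 CPM, but this rested on embryo 2, with 78.1 CPM in 24 cells against 21.8 and 15.8 CPM in embryos 1 and 3. Without embryo 2 gut endoderm was the highest lineage. Extraembryonic endoderm, at a mean of 2.26 CPM, and erythroid cells, at 0.716 and 0.308 CPM, were low.

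**Figure D2:**
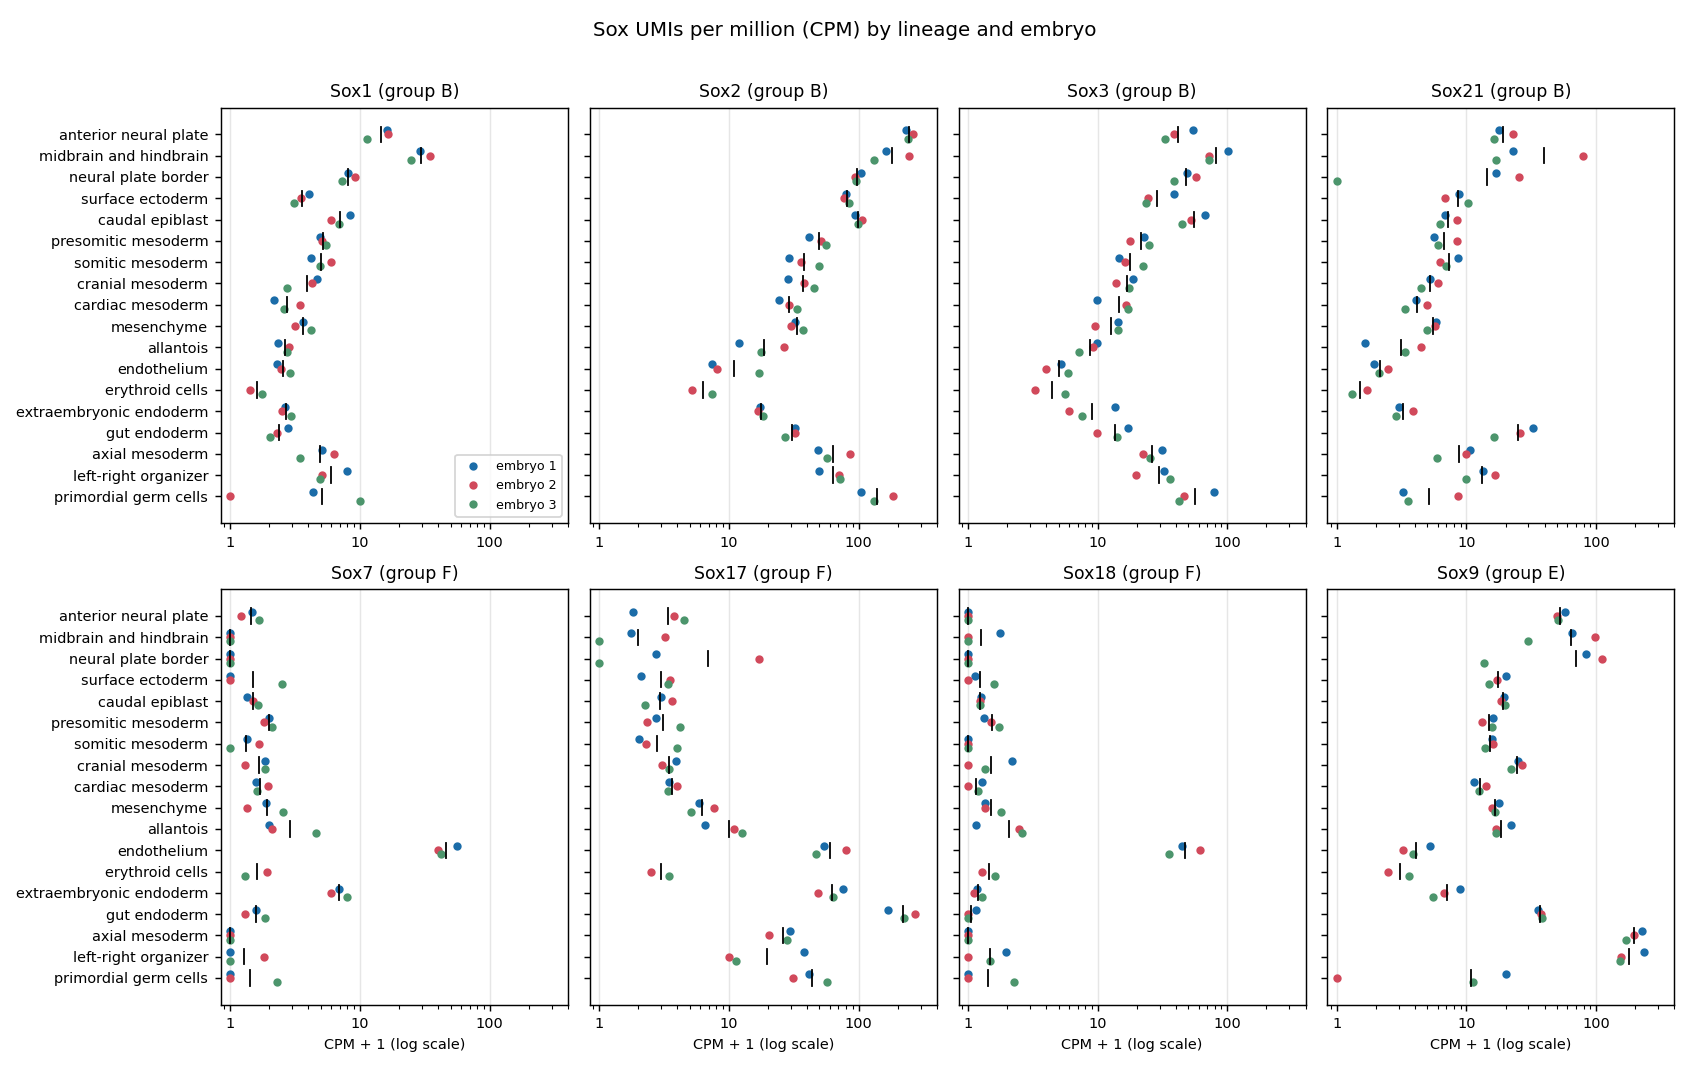
Level of 8 Sox genes (CPM + 1, log axis) in each lineage, with 1 point per embryo and a bar at the mean. Sox7 and Sox18 are highest in endothelium at means of 45.1 and 46.1 CPM, with Sox7 next in extraembryonic endoderm at 5.91 CPM, Sox17 is spread over gut endoderm, extraembryonic endoderm, endothelium and primordial germ cells, and Sox9 is highest in axial mesoderm and the LRO.

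The neural side of the ectoderm was compared with the non-neural side. Sox1, Sox2, Sox21 and Sox9 were higher in the anterior neural plate than in surface ectoderm, 4 of the 9 members tested, beside 13.5% of all genes tested that changed in either direction and 5.66% that were higher. The log2 fold change was 2.38 (SE 0.27, adjusted p = 1.25e-09) for Sox1, 1.63 (SE 0.20, adjusted p = 1.33e-08) for Sox2 and 1.22 (SE 0.31, adjusted p = 0.00369) for Sox21, by edgeR's quasi-likelihood test with Benjamini-Hochberg adjustment. Sox9 differed by 1.64 (SE 0.20, adjusted p = 2.11e-08). The levels of Sox1, Sox2, Sox21 and Sox9 did not overlap between the 2 lineages. These are the genes that the test called, and no share over all genes is given, so this adds no separate support. The Sox21 call was lost when cells were thinned to 5000 UMIs before placing (adjusted p = 0.292) and among cells that reached only 1 list (adjusted p = 0.205), and the Sox1 call under that thinning (adjusted p = 0.107); their lowest adjusted p over the alternatives was 3.25e-06 and 9.46e-13. Sox3 differed by 0.54 (SE 0.25, adjusted p = 0.163), and with the embryo as a block it passed the threshold at 0.55 (adjusted p = 0.0249, range over 12 alternatives 0.0063 to 0.956). Sox10 was too low to be tested in any comparison, which left 9 of the 10 members. The median change of the 9 was 1.22 against 0.01 for all genes. Over the alternatives it lay between 0.50 (without embryo 2) and 1.78 (thinning before placing, with 8 members tested). The 9 include Sox7, Sox8 and Sox18, whose changes had SE of 1.04, 2.05 and 2.07.

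Along the head to tail axis, 3 of the 4 group B genes were lower in caudal epiblast than in the anterior neural plate and Sox3 did not pass the test. Together with Sox9, 4 of 9 members were called and all were lower, beside 9.53% of all genes in either direction and 4.47% lower. The log2 fold changes were -1.20 for Sox1 (SE 0.20, adjusted p = 1.41e-05), -1.34 for Sox2 (SE 0.19, adjusted p = 3.16e-07), -1.57 for Sox21 (SE 0.27, adjusted p = 2.36e-05) and -1.54 for Sox9 (SE 0.18, adjusted p = 3.65e-09). Sox3 differed by 0.35 (SE 0.22, adjusted p = 0.45). The Sox1 call was lost under thinning before placing (adjusted p = 0.0595, lowest over the alternatives 1.29e-06). Whether Sox3 differed from the other group B genes in this change was not tested.

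Caudal epiblast was then set against the presomitic mesoderm, into which its cells are known to feed. Sox2 was higher in caudal epiblast by a log2 fold change of 1.03 (SE 0.19, adjusted p = 9.45e-05) and Sox3 by 1.38 (SE 0.22, adjusted p = 7.59e-06). They were 2 of 9 members called, beside 7.41% of all genes in either direction and 3.25% higher. Sox1 differed by 0.57 (adjusted p = 0.0842) and passed the threshold with the embryo as a block (adjusted p = 0.0302, range over 12 alternatives 0.0302 to 0.899). Sox9, at 0.38 (adjusted p = 0.261), passed in 1 of 12 alternatives, among cells that reached only 1 list (0.99, adjusted p = 0.00577). Between somitic and presomitic mesoderm 0 of 9 members passed, beside 5.41% of all genes, and 1 member, Sox18, had an unadjusted p under 0.05, from 0 UMIs in somitic mesoderm against 8, 5 and 11 in presomitic mesoderm. DESeq2 called 0 members in that comparison as well. Sox2 there was at 27.9, 34.9 and 48.6 CPM in somitic mesoderm against 40.3, 50.4 and 55.2 CPM, and without the filter on low counts it passed the threshold (log2 fold change -0.42, adjusted p = 0.024, range over 12 alternatives 0.024 to 0.87), as did Sox18 (adjusted p = 0.0363, range over 11 alternatives 0.0363 to 0.973).

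At the neural plate border, from which the neural crest arises, only Sox2 passed the test against the anterior neural plate. It was lower by a log2 fold change of -1.41 (SE 0.29, adjusted p = 0.00744), 1 of 9 members beside 0.22% of all genes in either direction and 0.144% lower. Its levels did not overlap between the 2 lineages, for which no share over all genes is given, and the border held 17, 14 and 10 cells. The call was lost without embryo 2 (-1.30, adjusted p = 0.245), without embryo 3 (-1.39, adjusted p = 0.0565) and among cells that reached only 1 list (-1.56, adjusted p = 0.114), at log2 fold changes close to the value above, with 1.43e-14 the lowest adjusted p over the alternatives. Sox9, a neural crest regulator, was at 83.1, 109 and 12.6 CPM in the border against 56.4, 48.8 and 49.7 CPM in the anterior neural plate. Embryo 3 lay far below embryos 1 and 2, with 2 Sox9 UMIs in its 10 border cells, and the difference was 0.48 (SE 0.27, adjusted p = 0.81). Sox8 and Sox10 had 0 UMIs in the border cells of all embryos, which allows up to 17.6%, 21.4% and 30% of cells with a UMI and sets no limit on cells that express the genes below detection.

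**Figure D3:**
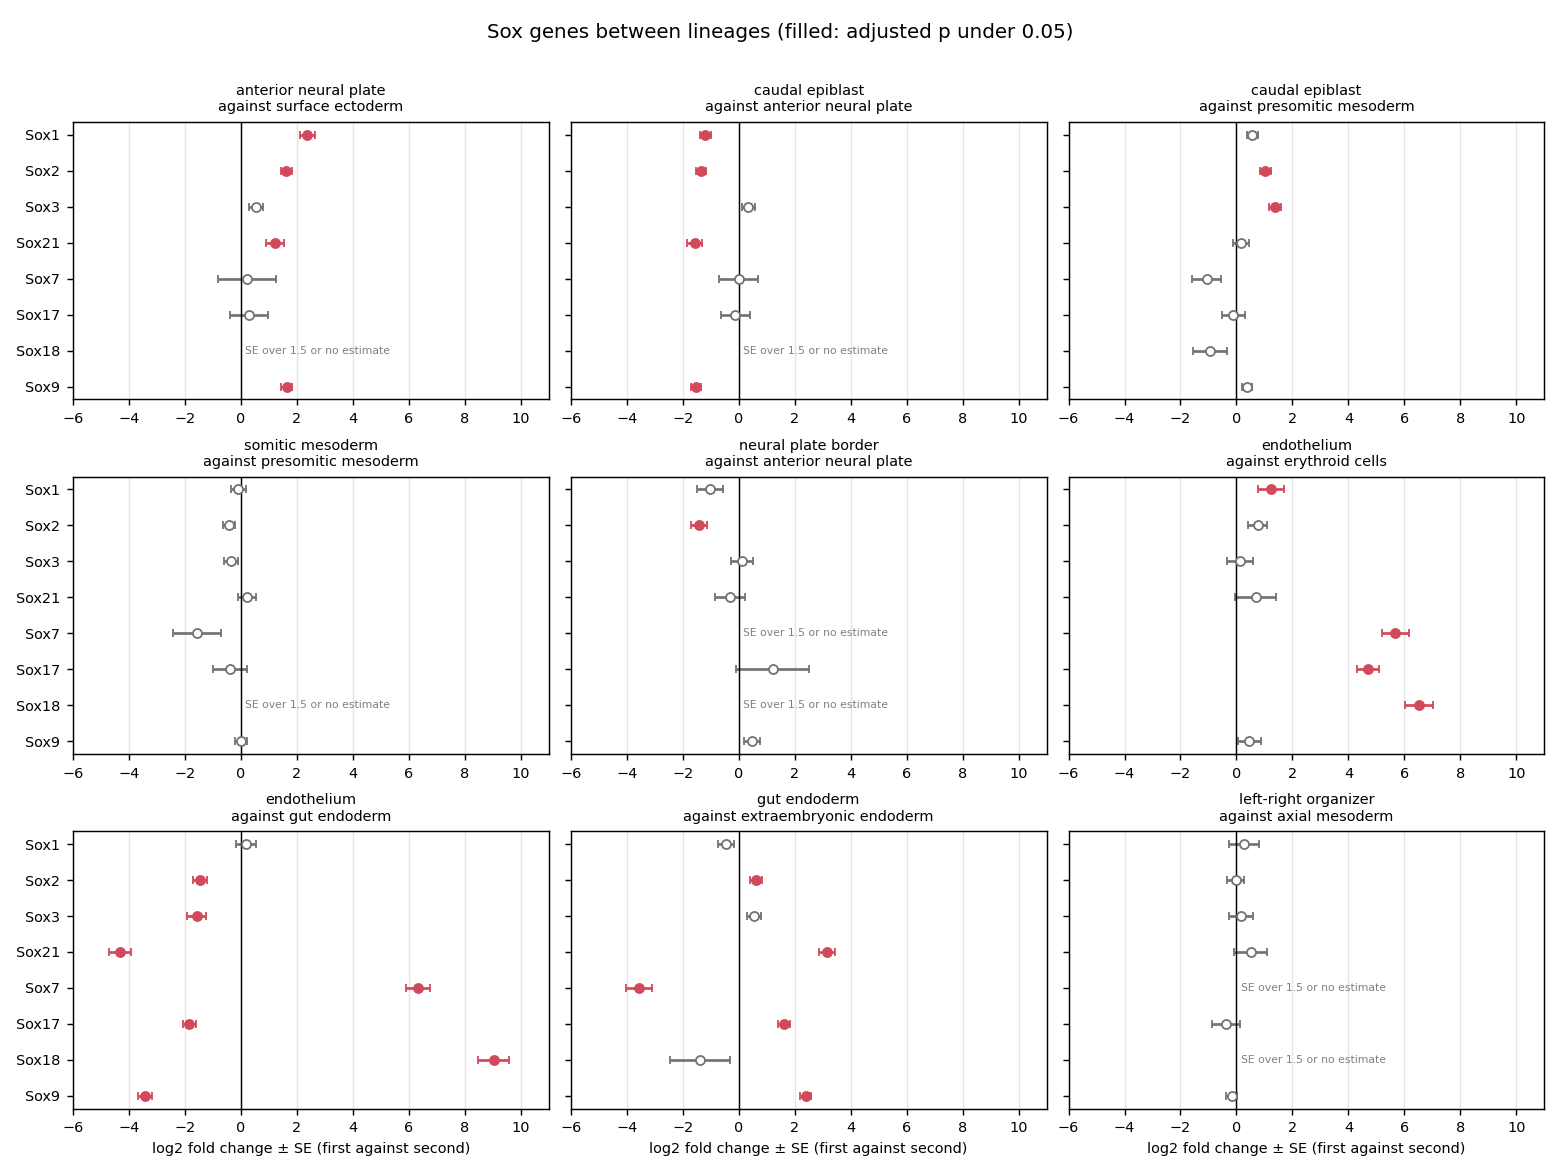
Log2 fold change ± SE of 8 Sox genes in 9 comparisons of lineages (first against second), from edgeR on UMIs summed per embryo, with filled points where the adjusted p was under 0.05. Sox1, Sox2, Sox21 and Sox9 have filled points in the anterior neural plate against surface ectoderm and in caudal epiblast against the anterior neural plate, where Sox3 has none, all 3 group F genes are at 4.71 or more in endothelium against erythroid cells, and the comparison of the LRO with axial mesoderm has no filled point.

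Sox7 and Sox18 were highest in the endothelium. Sox7 was at 55.4, 38.6 and 41.3 CPM there, with a UMI in 74.6%, 44.9% and 45.4% of cells. Sox18, whose mutation disturbs lymphatic vessels in mice, was at 43.4, 60.2 and 34.7 CPM, with a UMI in 59.6%, 51.1% and 36.2% of cells. For each gene the endothelium did not overlap the lineage that came next. That was extraembryonic endoderm for Sox7, at 5.90, 4.95 and 6.88 CPM and 18.2%, 9.24% and 12.8% of cells, and allantois for Sox18, at 0.165, 1.48 and 1.63 CPM. In erythroid cells 1.13% and 0.543% had a Sox7 UMI and 0.451% and 0.815% a Sox18 UMI, at medians of 14601 and 16086.5 UMIs, while the endothelium of embryos 2 and 3 had medians of 14355 and 14038. Sox7 in extraembryonic endoderm was above this background in embryos 2 and 3, and Sox18 there, at 0.225% and 0.564% in the same embryos, was not. Embryo 1, with 18.2% for Sox7 and 0.617% for Sox18 at a median of 28496 UMIs, had no erythroid share of its own. Sox7 had 0 UMIs in axial mesoderm, neural plate border and midbrain and hindbrain, which hold few cells, and Sox18 had 0 UMIs in 739 anterior neural plate cells.

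Sox17 was the group F gene with the widest range. Gut endoderm led at 166, 272 and 222 CPM and 81.4%, 75.2% and 78.7% of cells. Extraembryonic endoderm was at 75.1, 47.6 and 62.8 CPM and endothelium at 52.8, 78.7 and 45.7 CPM, and these 2 lineages overlapped each other but not the gut. Primordial germ cells, in which Sox17 is known as a regulator of human germ cell fate, were at 40.2, 30.4 and 56.5 CPM, with a UMI in 50%, 30.8% and 60.5% of 32, 13 and 43 cells. Erythroid cells were at 1.5 and 2.46 CPM, with a UMI in 1.35% and 2.72% of cells. After thinning to 5000 UMIs the Sox17 share was 53.4% ± 6.22 in gut endoderm, 25.0% ± 3.36 in extraembryonic endoderm, 24.8% ± 7.60 in endothelium and 22.8% ± 14.9 in primordial germ cells (SD, n = 3). Allantois was at 5.61, 9.88 and 11.6 CPM and 13%, 12.3% and 14.1% of cells.

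The Sox17 level in axial mesoderm and the LRO was lower among cells that reached the minimum of 3 markers in no other list. For LRO cells the axial mesoderm list was not counted as another list. Axial mesoderm was at 28.8, 19.5 and 26.9 CPM and the LRO at 37.0, 9.03 and 10.4 CPM, the latter from 5.97%, 7.35% and 5.00% of cells. In embryo 1 the whole LRO signal was 75 UMIs in 4 of 67 cells. A choice added after the values were seen kept only cells that reached 1 marker list, counted in that way. Under it the means were 1.79 CPM in axial mesoderm and 2.23 CPM in the LRO. The erythroid mean over all placed cells, without this choice, was 1.98 CPM. Axial mesoderm then held 11, 23 and 17 cells and the LRO 12, 20 and 18, which limits the precision of both means. Gut endoderm was at 201 CPM and primordial germ cells were at 64.2 CPM under the same choice. What the cells that reached several lists are was not tested.

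The endothelium was compared with erythroid cells, the other branch of the early blood and vessel lineage, and with gut endoderm. Against erythroid cells, all 3 group F genes were higher, by log2 fold changes of 5.67 for Sox7 (SE 0.48, adjusted p = 3.09e-13), 4.71 for Sox17 (SE 0.40, adjusted p = 6.14e-14) and 6.53 for Sox18 (SE 0.51, adjusted p = 6.46e-14). With Sox1, at 1.23 (SE 0.46, adjusted p = 0.0245), 4 of 9 members were called, beside 48.2% of all genes in either direction and 25.3% higher, a count near the background in either direction. The Sox1 call rested on 1.29, 1.49 and 1.90 CPM against 0.429 and 0.769 CPM and was lost without embryo 2 (adjusted p = 0.384), without embryo 3 (adjusted p = 0.0991), without the filter on low counts (adjusted p = 0.0731) and under thinning before placing (adjusted p = 0.197). Sox2 passed with the embryo as a block (log2 fold change 0.86, adjusted p = 0.012) and without it did not (0.75, adjusted p = 0.072; 6 of 12 alternatives passed).

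Against gut endoderm the group F genes divided. Sox7 was higher in endothelium by 6.33 (SE 0.43, adjusted p = 3.49e-16), and Sox18 had 697 UMIs in endothelium against 2 in gut, a ratio of 576 with an exact 95% interval of 159 to 4767 that covers counting error only. Sox17 was lower in endothelium by a log2 fold change of -1.84 (SE 0.23, adjusted p = 4.11e-09). The 4 other members that passed were also lower in endothelium, Sox21 at -4.32 (adjusted p = 5.10e-13), Sox9 at -3.43 (adjusted p = 9.92e-16), Sox3 at -1.57 (adjusted p = 0.000138) and Sox2 at -1.46 (adjusted p = 5.86e-06). In all 2 members were higher and 5 lower of 9, beside 47.7% of all genes in either direction, 22.6% higher and 25.1% lower.

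Gut endoderm, which forms the lining of the gut, differed from extraembryonic endoderm in members of every group. Sox17 was higher in gut by 1.62 (SE 0.22, adjusted p = 1.95e-08), Sox9 by 2.39 (SE 0.19, adjusted p = 7.38e-15), Sox21 by 3.15 (SE 0.28, adjusted p = 1.89e-13) and Sox2 by 0.62 (SE 0.21, adjusted p = 0.0117), while Sox7 was lower by a log2 fold change of -3.55 (SE 0.46, adjusted p = 1.27e-08). These were 4 higher and 1 lower of 9 members, beside 56% of all genes in either direction, 27.2% higher and 28.8% lower, so the 5 of 9 members were near the background. The Sox2 call was lost without embryo 2 (adjusted p = 0.105, lowest over the alternatives 6.14e-06). Sox3, at 0.54 (adjusted p = 0.0708), passed with the embryo as a block (adjusted p = 0.0161) and in 8 of 12 alternatives in all.

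Sox9 was the only group E gene counted in numbers, with 10498 UMIs in kept cells against 106 for Sox8 and 49 for Sox10. Its level was 224, 195 and 169 CPM in axial mesoderm, which holds the notochord precursors, and 231, 155 and 152 CPM in the LRO. A UMI was found in 88.9%, 67.4% and 74.1% of axial mesoderm cells and in 85.1%, 73.5% and 76.2% of LRO cells. Both lineages overlapped each other and stood apart from the neural plate border that came next. Midbrain and hindbrain was at 63.9, 96.0 and 29.0 CPM, anterior neural plate at 56.4, 48.8 and 49.7 CPM, gut endoderm at 34.4, 36.7 and 37.1 CPM and cranial mesoderm at 24.1, 25.7 and 20.9 CPM. The last 3 of these did not overlap from one to the next. In the Sox9 order 5 of the 17 pairs of neighbours were apart, the most of any member. No share over all genes is given for this count, so it is not read as a trait of Sox9. Erythroid cells were at 1.5 and 2.62 CPM with a UMI in 1.81% and 2.72% of cells.

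The LRO, which breaks left-right symmetry, was compared with axial mesoderm as the most similar class. The placing rule favoured the LRO, which took cells with at least 3 LRO markers even where axial mesoderm had the higher share. Of 9 members 0 were called, beside 8.49% of all genes, 0 members had an unadjusted p under 0.05, and DESeq2 called 0. Sox9 differed by -0.18 (SE 0.19, adjusted p = 0.701), Sox2 by -0.03 (SE 0.31, adjusted p = 0.998) and Sox17 by -0.38 (SE 0.49, adjusted p = 0.764). Sox2 was at 48.8, 69.7 and 70.6 CPM in the LRO and at 48.0, 85.0 and 56.3 CPM in axial mesoderm. Sox21 was at 12.3, 15.6 and 8.89 CPM in the LRO and 9.61, 8.85 and 4.89 CPM in axial mesoderm. Among cells with only 1 list reached Sox9 was at 336 CPM in the LRO, from 12, 20 and 18 cells, and at 278 CPM in axial mesoderm, the reverse of their order over all placed cells.

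Sox8 and Sox10 were at the edge of detection at this stage. Sox8 had 4, 4 and 8 UMIs in allantois, or 0.660, 0.494 and 0.813 CPM, and 0, 1 and 2 UMIs in axial mesoderm, whose mean of 2.22 CPM was nominally higher. No lineage had more than 2 Sox8 UMIs in any cell. Sox10 had 20, 11 and 18 UMIs in all kept cells and its highest mean, 0.547 CPM in the LRO, was 2 UMIs in embryo 2. Erythroid cells had 0 UMIs of either gene, which allows up to 0.339% and 0.815% of cells with a UMI. No pair of neighbouring lineages was apart for either gene.

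Co-detection within a lineage was compared with the number of cells that the product of the shares of both genes would give. Only pairs with at least 20 positive cells of each gene in each embryo were counted, which gave 87 combinations of pair and lineage. No pair within group E met this rule. Pairs within group F met it only in endothelium and extraembryonic endoderm, so most same-group combinations were of group B. For pairs of the same group, cells with both genes exceeded the product in all 3 embryos in 34 of 37 combinations, with a median ratio of 2.04. For pairs of different groups this held in 35 of 50 combinations, with a median of 1.38, and 7 were below the product in all embryos. The ratio has less room to rise where a gene is found in most cells, such as Sox17 in gut endoderm. The medians of the kinds of pair, here and after thinning, therefore cannot be compared without regard to the shares. Because deep cells detect more of every gene, each cell was also thinned to 5000 UMIs. The counts were then 21 of 37 within groups (median 2.00) and 11 of 50 between groups (median 1.07), with 11 below. Thinning also left fewer UMIs to count, 5685 in place of 28837 for Sox2, and why the counts fell was not tested.

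The 3 group F genes shared endothelial cells. Sox7 and Sox18 were found together in 94, 59 and 79 cells, where the product gave 85.8, 51.6 and 62.7, and Sox17 and Sox18 in 83, 79 and 80 cells, where it gave 75.1, 73.6 and 60.5. Sox7 and Sox17 were found together in 101, 71 and 86 cells. The excess was small, with pooled ratios of 1.16, 1.16 and 1.10, and after thinning the cells with both numbered 35, 43 and 37 against products of 30.3, 37.5 and 38.2. Over all kept cells, 69.1%, 44.7% and 54.9% of the cells with Sox18 also had Sox7, a share that the common lineage already raises.

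For Sox2 and Sox3 the ratio differed between lineages. In the anterior neural plate 164, 106 and 87 cells had both against 162, 105 and 86.2 from the product, a ratio of 1.01. Only 167, 110 and 89 cells there had Sox3, the most that could have both, so the ratio had almost no room to rise. Lineages with lower shares left more room, so the size of the ratio cannot be compared between lineages without regard to the shares. The ratio was 1.09 in caudal epiblast, 2.04 in presomitic mesoderm, 2.11 in gut endoderm and 5.53 in extraembryonic endoderm. After thinning it was 0.96 in the anterior neural plate, 1.17 in caudal epiblast, 2.60 in presomitic mesoderm, 2.31 in gut endoderm and 9.61 in extraembryonic endoderm, the last from 22 cells where the product gave 2.29. Among cells that reached only 1 list it was 2.89 in presomitic mesoderm and 8.38 in extraembryonic endoderm. The Sox2 and Sox3 UMIs of these lineages were thus found in the same cells more often than the shares gave, while in the anterior neural plate they were not after thinning.

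In gut endoderm Sox17 was found less often than the product with Sox2 and Sox3 and more often with Sox21. Sox2 and Sox17 were together in 106, 72 and 38 cells against products of 112, 72.9 and 45.6, and Sox3 and Sox17 in 67, 28 and 29 cells against 79.0, 30.8 and 35.4. Both pairs were below the product in every embryo, with pooled ratios of 0.94 and 0.85, and remained below in every embryo after thinning, at 0.84 and 0.81. Sox2 with Sox17 in embryo 2 was close to its product. Sox21 and Sox17 were together in 156, 77 and 43 cells, above the product in every embryo with a ratio of 1.07 (1.11 after thinning). The Sox21 excess was slight in embryo 3, where 54 of 305 cells had Sox21 and 240 had Sox17. Sox9 and Sox17 were together in 153, 96 and 75 cells with a ratio of 1.06 (1.12 after thinning). In extraembryonic endoderm Sox7 and Sox9 shared 5, 3 and 4 cells where the product gave 7.28, 7.86 and 8.44. In primordial germ cells, too few for the rule, Sox2 and Sox17 were together in 14, 3 and 13 cells where the product gave 14.0, 2.46 and 17.5. Sox2 and Sox9 in the LRO were together in 22, 22 and 38 cells, near the products of 21.3, 23.5 and 38.1.

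**Figure D4:**
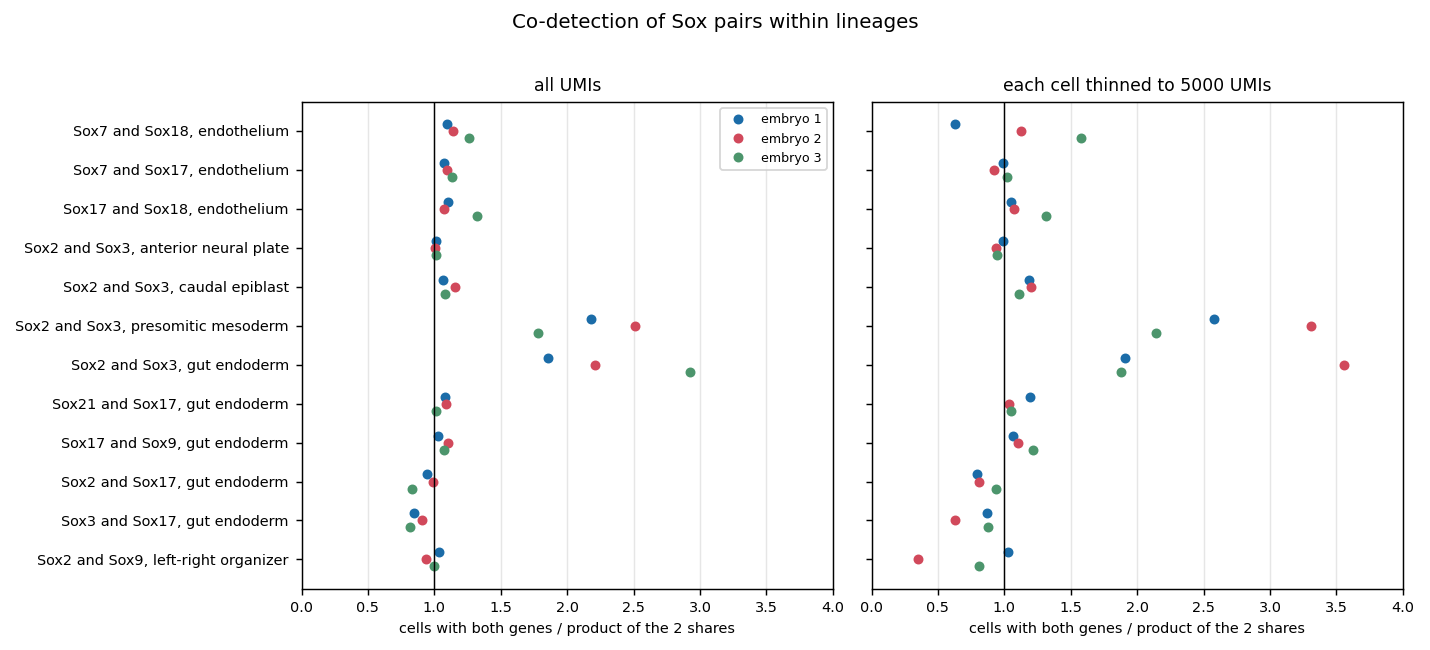
Cells with UMIs of both genes divided by the number the product of the shares gives (x axis, no unit), for 12 pairs and lineages, per embryo, with all UMIs on the left and after thinning each cell to 5000 UMIs on the right. The line at 1 is the product; Sox2 and Sox3 in presomitic mesoderm and gut endoderm lie well above it in both panels and Sox17 with Sox2 or Sox3 in gut endoderm lies below it in both.

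A list of 33 further genes, 9 other Sox genes and 8 genes linked to each group in development, was followed in the same comparisons, and 30 were tested. The genes were chosen for known roles and with earlier results of these data known. Counts of them beside the shares of all genes are therefore descriptions and add no separate support. All 7 tested genes linked to group F were higher in endothelium than in erythroid cells, beside 25.3% of all genes, with a median log2 fold change of 5.06 against 0.05 for all genes. The tight junction gene Cldn5 was at 8.19 (adjusted p = 7.33e-16), the Notch ligand Dll4 at 6.36 (adjusted p = 1.78e-10), the lymphatic receptor Flt4 at 5.89 (adjusted p = 6.43e-16) and Rasip1, needed for vessel tubes, at 4.41 (adjusted p = 2.65e-17). Against gut endoderm 6 of 7 were higher, beside 22.6% of all genes, with a median of 5.38. Of the 8 genes on the list, 6 had their highest mean in endothelium, Cldn5 at 57.6 CPM, Flt4 at 62.4 CPM, Rasip1 at 169 CPM, Dll4 at 11.3 CPM, Notch1 at 113 CPM and Robo4 at 1.94 CPM. Mef2c was highest in cardiac mesoderm at 427 CPM and Efnb2 in somitic mesoderm at 52.3 CPM.

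Of the 8 genes linked to group B, 5 were higher and 0 lower in the anterior neural plate than in surface ectoderm, beside 5.66% of all genes higher, with a median of 0.92. The POU factor Pou3f1 was higher by 3.19 (adjusted p = 5.44e-16), Pax6, an eye and forebrain regulator, by 2.53 (adjusted p = 0.000467) and Zic2 by 1.88 (adjusted p = 1.02e-11). In caudal epiblast against the anterior neural plate 2 were higher and 3 lower, beside 5.06% and 4.47% of all genes. Pou3f1 was at -2.29 (adjusted p = 1.92e-13) and Fabp7, a fatty acid binding protein of neural progenitors, at 1.96 (adjusted p = 2.12e-10). Pou5f1, the partner of Sox2 in pluripotent cells, was higher in caudal epiblast by 0.98 (adjusted p = 0.00845) and had its highest mean in primordial germ cells at 410 CPM. In caudal epiblast against presomitic mesoderm 1 was higher and 2 lower, beside 3.25% and 4.16% of all genes. In somitic against presomitic mesoderm 1 was higher and 4 lower, beside 2.33% and 3.08% of all genes. At the border only Pou3f1 was lower, at -2.07 (adjusted p = 4.79e-05), beside 0.144% of all genes lower.

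Of the 8 genes linked to group E, 0 were higher and 3 lower in the LRO than in axial mesoderm. Over all genes 8.49% were called in either direction and 2.65% were lower, and Sox9 itself was not called. The cartilage collagen Col2a1 was lower by a log2 fold change of -2.84 (adjusted p = 4.64e-12), Col9a1 by -1.47 (adjusted p = 0.00163) and Erbb3, a neuregulin receptor, by -2.08 (adjusted p = 0.0122). Col2a1 was at a mean of 119 CPM in axial mesoderm and Col9a1 at 41.7 CPM, their highest lineage. In the anterior neural plate against surface ectoderm 1 was higher and 3 lower, beside 5.66% and 7.79% of all genes. Among the lower was Snai2, a regulator of crest cell migration, at -3.60 (adjusted p = 1.08e-11).

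Of the 9 other Sox genes, 7 were tested and 6 were higher in gut endoderm than in extraembryonic endoderm, beside 27.2% of all genes higher and 56% in either direction, with a median of 1.57. Sox4 and Sox11, of group C, were higher by 2.65 (adjusted p = 1.65e-20) and 1.57 (adjusted p = 1.52e-11). In endothelium against gut endoderm 0 were higher and 5 lower, beside 22.6% and 25.1% of all genes. Sox11 was at 405 CPM in the anterior neural plate and Sox4 at 545 CPM in the LRO, their highest means, and neither fell below 54.9 CPM in any lineage mean. Sox15 reached a mean of 9.2 CPM in primordial germ cells and 0.4 CPM in the lineage that came next. Over all lists the higher and lower genes of 30 numbered 15 and 0 in endothelium against erythroid cells, beside 48.2% of all genes in either direction, 10 and 10 in endothelium against gut, beside 47.7%, and 14 and 2 in gut against extraembryonic endoderm, beside 56%. Both directions together, the first and the last of these totals were near the background. By direction they were not, with 25.3% of all genes higher and 22.9% lower in the first and 27.2% and 28.8% in the last. The counts were 8 and 5 in the anterior neural plate against surface ectoderm (13.5% of all genes), 3 and 6 in caudal epiblast against the anterior neural plate (9.53%), 4 and 4 in caudal epiblast against presomitic mesoderm (7.41%), 5 and 4 in somitic against presomitic mesoderm (5.41%), 0 and 1 at the border (0.22%) and 6 and 4 in the LRO against axial mesoderm (8.49%).

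The genes whose levels followed each member most closely were found by Pearson's r of log2(CPM + 1) over the 53 sums, among 10124 genes that are no lineage marker. These correlations are descriptions, since the sums share 3 libraries and a common set of lineages. Sox18 was followed by Myct1 (0.96), Stab1 (0.96) and Erg (0.95) and Sox7 by Gimap1 (0.92), Pdgfb (0.90) and Stab1 (0.90), so both shared Stab1. Sox2 was followed by Stmn2 (0.90), Zfp462 (0.90) and A830018L16Rik (0.88), Sox3 by Crabp2 (0.89) and Pou5f1 (0.88), and Sox1 by Pim2 (0.87), Nfasc (0.87) and Stmn3 (0.85). Sox9 was followed by Btbd17 (0.87), Fgf5 (0.86) and Adgrb2 (0.84), Sox17 by Sec62 (0.83), Pofut2 (0.82) and Bcap31 (0.78), and Sox21 by Nrcam (0.78), Hs6st1 (0.78) and Jarid2 (0.78). For Sox8 and Sox10 the highest r was 0.68 and 0.54, from counts near 0.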

How the data were processed

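The authors dissociated each embryo, prepared 10x 3′ v3 libraries and ran Cell Ranger (version 3.1.0, per the submitters' processing notes) on mm10 with an EGFP sequence added. The deposited values are their raw UMI counts per gene and called cell, without normalization. Barcodes outside 1500 to 8500 genes (7500 in embryo 2) or over 10% mitochondrial UMIs were removed, as the study did. Barcodes under 1% (351, 166 and 93) were removed in place of clusters that the study took out. The study gave low mitochondrial and gene counts and mixed markers of several cell types, as in doublets or empty droplets, as its reasons. The cut at 1% does not replace the removal of doublets. The 3 embryos are separate animals and the replicates.

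A cell was placed in the lineage with the highest share of its markers carrying a UMI, with at least 3, and ties stayed unplaced (580, 477 and 532 cells), as did cells that reached no list (555, 917 and 998). The LRO went before axial mesoderm. A cell with at least 3 LRO markers was placed in the LRO also where axial mesoderm led or tied with the LRO. No doublet caller was run. The minimum of 3 was set on marker genes alone. UMIs were summed per embryo and lineage with at least 10 cells. All 53 sums entered 1 edgeR fit (version 4.0.16, R version 4.3.3; glmQLFit and glmQLFTest, TMM, filterByExpr). Calls were made at a Benjamini-Hochberg adjusted p of 0.05, with the adjustment over all genes that passed the filter, lineage markers included. Lineage markers were left out of the counts of genes, which left 14538 tested genes. The method was also run on simulated counts for the anterior neural plate against surface ectoderm and the LRO against axial mesoderm. Each simulated sum was drawn independently, so a correlation between sums of the same embryo was not part of that run. Standard errors are of log2 fold changes. Share intervals and floors (3 counts at a count of 0) cover counting error only.

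The named genes are the 10 members, 33 linked genes and the 3 genes most correlated with each member, among those reaching a mean of 10 CPM. Not all of these are named here, and some enter only the counts. Members and lists were chosen with earlier results of these data known. Sequences come from GENCODE M21 transcripts. Sums of 1 embryo come from the same animal. Over 26 pairs of sums the deviations of same-numbered sums correlated at 0.0332 to 0.511, 19 of them over 0.1, so a fit with an embryo block was also made and is given where it changes a call. Other alternatives were DESeq2 (version 1.42.0), RLE factors, no filter, only the 2 lineages in the fit, 1 more marker, removal of the 5% of cells with most UMIs, thinning before placing, each embryo left out, and, added after seeing the data, only cells that reached 1 list. In that last choice LRO cells that also reached the axial mesoderm list were kept.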

Additional observations from a re-analysis of the deposited data

Results flagged for a closer look

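Kept cells that no marker list placed, 1135, 1394 and 1530 in embryos 1, 2 and 3, were not used in the comparisons, and 8 members had UMIs there above the limit that a count of 0 allows in every embryo. Their mean levels over the 3 embryos were 97.1 CPM for Sox2, 49.4 CPM for Sox3, 26.0 CPM for Sox9, 11.4 CPM for Sox21, 11.3 CPM for Sox1 and 2.86 CPM for Sox17. Sox2 was at 97.0, 97.4 and 96.9 CPM, near its caudal epiblast and border levels, and it was found in 67.0%, 55.2% and 61.9% of these cells. Sox7 at 0.70 CPM and Sox18 at 0.31 CPM were near the level of most lineages outside endothelium (erythroid means 0.619 and 0.451 CPM).

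The barcodes with under 1% mitochondrial UMIs were removed, and 4 members passed the same limit in them. Sox17 was at 76.1, 62.8 and 106 CPM (mean 81.8 CPM), with a UMI in 28.5%, 20.5% and 26.9% of these barcodes, above its level over all kept cells of 20.1, 26.6 and 20.9 CPM. Sox2 was at a mean of 44.8 CPM, Sox3 at 17.4 CPM and Sox9 at 15.0 CPM. What these barcodes hold was not tested.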

How the results depend on the processing

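No called fold change turned its direction under the alternatives run. Of 404 fold changes recomputed, 372 stayed on their side of the threshold, 12 lost it and 20 passed it; the cause was not tested. With the embryo as a block the members called were 5, 3, 5 and 6 in place of 4, 2, 4 and 5 in the anterior neural plate against surface ectoderm, caudal epiblast against presomitic mesoderm, endothelium against erythroid cells and gut against extraembryonic endoderm, and no other member's call changed. Thinning cells to 5000 UMIs before placing left 2 of 4 members called in the anterior neural plate against surface ectoderm, and no filter on low counts gave 2 in place of 0 in somitic against presomitic mesoderm. At the neural plate border the count was 0 in place of 1 among cells that reached only 1 list and 0 to 1 with an embryo left out, and too few cells were left to compare it under 1 more marker or thinning before placing. Of the 8 members other than Sox8 and Sox10, 5 kept their highest lineage under thinning before placing. The other 3, Sox1, Sox3 and Sox21, had been led by midbrain and hindbrain, which then held 1, 3 and 1 cells and gave no sum, so they could not keep it. Their next lineages were the anterior neural plate, primordial germ cells (1 sum, of 22 cells in embryo 3) and gut endoderm. With only 1 list reached, Sox9 moved to the LRO. Co-detection above the product in all embryos fell from 69 to 32 of 87 combinations when cells were thinned after placing.

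Counts of all genes called moved more. In the order of the report's comparisons from the anterior neural plate against surface ectoderm to somitic against presomitic mesoderm, 1956, 1385, 1077 and 787 genes became 339, 580, 537 and 443 under thinning before placing and 1108 to 1294, 756 to 889, 512 to 697 and 329 to 522 with an embryo left out. The block gave 2132, 2119 and 1257 for the last 3 of these, and only 1 list reached gave 1073 for the first. At the border 32 became 101 without a filter, 52 with DESeq2, 13 with only 1 list and 12 to 13 with an embryo left out. In the LRO against axial mesoderm 1234 became 673 under thinning, 786 with only the 2 lineages in the fit and 572 to 930 with an embryo left out. Endothelium against gut fell from 6940 to 4087 under thinning, and endothelium against erythroid cells from 7009 to 4645 without embryo 2. In that last comparison 3679 genes were higher and 3330 lower, against 4385 and 2562 with RLE factors and 4352 and 2550 with DESeq2, and the median of all genes moved from a log2 fold change of 0.05 to 0.18 with RLE factors and 0.20 with DESeq2. At the border 11 were higher and 21 lower, against 37 and 15 with DESeq2, where the median of all genes moved from -0.12 to 0.03. The border, midbrain and hindbrain, axial mesoderm and germ cell sums hold few cells, which limits their precision.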
